A study of Mus musculus with 2 samples.

Results

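The limb and body wall T-box genes described here are *Tbx2*, *Tbx3*, *Tbx4*, *Tbx5*, *Tbx15* and *Tbx18*. They are 6 of the 18193 named genes on the array, and all probe sets annotated to one of them alone were taken, 14 of 45037. A probe set is a group of short oligonucleotides against one transcript. Superficial zone (SFZ) cells, taken from the surface of the articular cartilage of femur and tibia, were compared with costal chondrocytes (CC), the cartilage cells of the ribs. Both came from ICR mice at postnatal day 4, the labels name no transgene or treatment for either, and both were cultured in DMEM with 10% FBS. No source used here says how many animals each RNA came from.

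T-box proteins are transcription factors that bind DNA through a shared domain, the T-box, and they are known for setting up limbs, trunk and heart in the embryo. *Tbx5* and *Tbx4* start the outgrowth of the forelimb and hindlimb bud, and *Pitx1* acts upstream of *Tbx4* in the hindlimb. *Tbx2* and *Tbx3* encode repressors of limb margins and of the body wall, whereas *Tbx15* and *Tbx18* are close paralogs that encode repressors in the mesenchyme of limb, girdle and somites.

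Each cell type had 1 array, so no difference has a replicate check and none was tested. The values are MAS5 signals, which are linear intensities, and a signal of one probe set cannot be set against that of another. A gene counted as higher in SFZ cells where the SFZ signal exceeded 100 and the SFZ/CC ratio exceeded 2, the thresholds used in the study, and for CC the same thresholds were turned around. The background level, taken from receptor genes of smell and taste that cartilage cells should lack, was 28.2 for SFZ cells and 26.0 for CC. A ratio whose dimmer signal did not exceed this level is a lower bound ("at least"), computed against the level itself. Pairs of signals are given with SFZ cells first and CC second. *Tbx4*, *Tbx15* and *Tbx18* were listed by the study from these same arrays with these thresholds, so their passing is not independent evidence of their direction. The study also measured its listed factors by RT-qPCR, a PCR measure of RNA, and reports that this bore out their expression. That evidence lies outside the arrays and was not re-examined here. The SFZ cells come from hindlimb joints and the CC from ribs, and the position in the body cannot be told apart from the zone of the cartilage.

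The joint lubricant gene *Prg4* was at 323 and 73.6, while *Gdf5*, a growth factor of joint formation, was at 93.1 and 74.2 and did not pass. The cytoplasmic actin gene *Actb* was at 7578 and 9338. By RT-qPCR the study reports that both *Gdf5* and *Prg4* were high in SFZ cells and very low in CC. That measurement was not re-examined here. The array signals of *Gdf5* did not show so clear a difference. The SFZ/CC log2 ratios had a median of -0.15 over the 21352 probe sets that both arrays measured above background, or 0.03 once the array medians were made equal. SFZ cells took 17.9% of all probe sets that passed, or 32.1% with equal array medians and 37.6% with quantile normalization.

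Of the 6 T-box genes, *Tbx4*, *Tbx15* and *Tbx18* were higher in SFZ cells, *Tbx3* was higher in CC, and *Tbx2* and *Tbx5* passed in neither direction. The background of this count was 1.37% of all named genes higher in SFZ cells and 6.17% higher in CC, on any probe set. Counted by probe set, SFZ cells had 4 of the 14 and CC had 1, against 0.779% and 3.58% of all probe sets. Those shares of all probe sets were 1.28% and 2.70% with equal array medians, and 1.47% and 2.43% with quantile normalization. The T-box count then stayed at 4 and 1 with equal medians, and was 5 and 1 with quantile normalization. A signal above background on at least 1 array was found for 9 of the 14, against 56.6% of all probe sets. Of these 9, only the 4 of *Tbx15* and *Tbx18* were above background on both arrays. The other 5, of *Tbx3*, *Tbx4* and *Tbx5*, were above it on 1 array alone, which fixes their direction, so no tally of directions and no median over the 9 is read here. Since 3 of the 6 genes had been listed from these arrays, the counts describe the arrays and are no independent result about T-box genes.

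**Figure D1:**
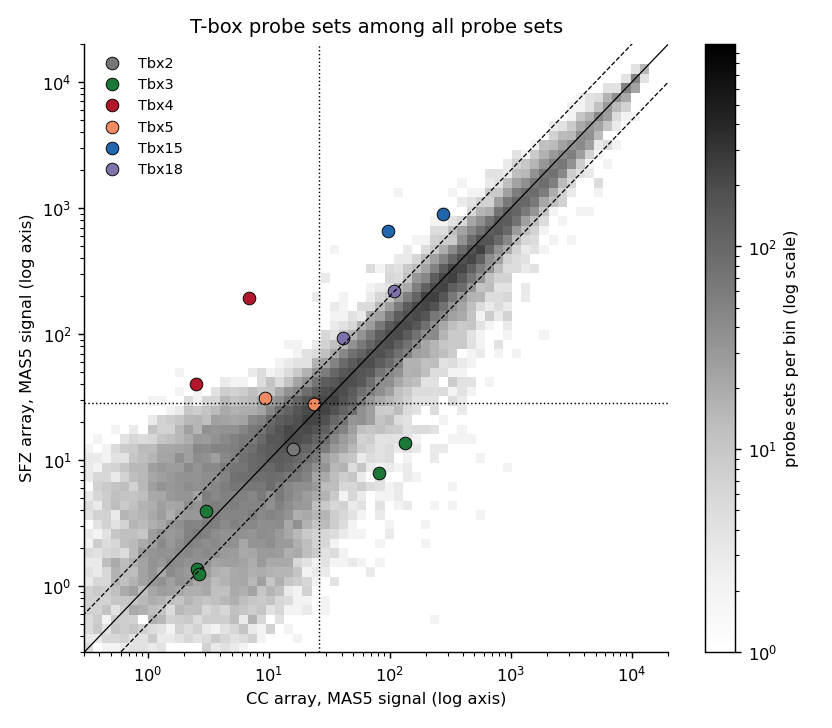
MAS5 signals of all probe sets on the CC array (horizontal axis) and the SFZ array (vertical axis), both on log axes, with the number of probe sets per bin in grey and the 14 T-box probe sets as coloured points. The solid line marks equal signals, the dashed lines a ratio of 2 and the dotted lines the background levels. Both probe sets of *Tbx15* lie above the upper dashed line, and *Tbx3* has 2 probe sets below the lower one with a CC signal above background.

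*Tbx4*, the hindlimb bud gene, was seen on the SFZ array and not above background on the CC array. On probe set 1456033_at the signals were 194.5 in SFZ cells and 6.94 in CC. This was 6.90 times the SFZ background, and SFZ cells exceeded CC at least 7.47-fold. On the other probe set, 1426321_at, the signals were 40.2 and 2.52. The brighter of these did not reach the minimum of 100, and the bound was only 1.54-fold. So the direction was the same on both probe sets, and the size rests on 1456033_at. At a minimum signal of 200 *Tbx4* would not pass.

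*Tbx5*, the forelimb counterpart, stayed near background in SFZ cells and under it in CC. On 1425694_at the signals were 31.1 and 9.25, which gives at least 1.19-fold. On 1425695_at they were 28.0 and 23.9, under background on both arrays, so no ratio is given. *Pitx1*, the upstream homeobox gene of the hindlimb, was higher in SFZ cells on both of its probe sets, at 322 against 31.3 and at 348 against 17.3. *Fgf10*, the limb bud growth factor that *Tbx4* and *Tbx5* activate in the embryo, was named here after its value was seen. Its signals were 11.2 in SFZ cells and 45.2 in CC, under background in SFZ cells, and it did not pass because the CC signal was under 100.

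The stretches of 250 bases before the transcription start of *Tbx4* and *Tbx18*, genes that were both higher in SFZ cells, show the sequence that lies in front of them. They come from the RefSeq annotation of GRCm38.p6, whose table holds 2 of the 6 genes. That of *Tbx4* is chr11:85896515-85896764 on the plus strand, before a start that lies inside the annotated gene, and that of *Tbx18* is chr9:87731261-87731510 on the minus strand. Capitals mark matches, on either strand, to any of 5 short motifs.
Tbx4: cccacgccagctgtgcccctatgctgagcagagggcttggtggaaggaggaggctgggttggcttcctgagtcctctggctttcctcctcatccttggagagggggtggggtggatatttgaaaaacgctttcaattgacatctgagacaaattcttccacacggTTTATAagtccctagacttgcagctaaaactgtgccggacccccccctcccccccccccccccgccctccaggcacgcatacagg
Tbx18: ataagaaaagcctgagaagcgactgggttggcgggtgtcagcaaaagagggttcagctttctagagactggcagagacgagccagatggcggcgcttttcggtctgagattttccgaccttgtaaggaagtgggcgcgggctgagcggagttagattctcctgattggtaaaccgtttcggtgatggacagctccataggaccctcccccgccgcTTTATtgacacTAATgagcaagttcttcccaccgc

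TTTAT, the core of posterior Hox sites, matched once in each, starting 85 bases before the start in *Tbx4* and 35 bases before it in *Tbx18*, and 37.3% of all 32851 such stretches hold it. In *Tbx4* this match overlaps the only match to TATAAA, the TATA box, which 12.4% of all stretches hold. The homeobox core TAAT matched once in *Tbx18*, 24 bases before the start, and not in *Tbx4*, against 54.9% of all stretches. Neither stretch held GGTGTGA, a T-box half-site found in 3.33% of all stretches. Neither held the Pitx site TAATCC, found in 6.25%. The letters were chosen with the sequences in view. The stretch of *Tbx18* held 15 CG dinucleotides and that of *Tbx4* held 6, which is the median of all stretches. A match describes letters and is not a bound site, and the arrays do not show which start the cells used.

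*Tbx15* was measured above background on both arrays by both of its probe sets. On 1418755_at the signals were 904 on the SFZ and 275 on the CC array, with a ratio of 3.29. On 1422195_s_at they were 659 and 96.1, a ratio of 6.86. CC therefore also carried *Tbx15* signal, at 10.5 and 3.69 times the CC background. With signals raised to background, 0.467% and 0.110% of the 25481 probe sets above background on at least 1 array had a higher ratio. Probe sets with 1 signal under background entered this ranking at their bounds, so the shares could be larger. These log2 ratios were 1.72 and 2.78 and lay 1.06 apart. For comparison, 2987 genes had exactly 2 probe sets that both arrays measured above background. Their median gap was 0.21 and the 95th percentile was 0.87, and 97.4% had a smaller gap than *Tbx15*. The "_s" in the name with the larger ratio marks a probe set that can bind more than 1 transcript.

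*Tbx18*, which marks the anterior compartment of somites and later the mesenchyme of several organs, had ratios close to the threshold of 2. On 1429974_at the signals were 219.9 and 108, a ratio of 2.03. On 1449871_at they were 93.3 and 41.2, a ratio of 2.27, and 93.3 does not reach the minimum of 100. Both arrays measured *Tbx18* above background on both probe sets. The log2 ratios were 1.02 and 1.18, a gap of 0.16, and 40.9% of the 2987 genes had a smaller gap. With 64 added to both signals the log2 ratio of 1429974_at was 0.72, and *Tbx18* no longer passed.

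*Tbx3*, a repressor known from limb, mammary gland and body wall, was the only one of the 6 genes higher in CC. On 1448029_at the signals were 13.6 in SFZ cells and 134 in CC, so *Tbx3* was at least 4.76-fold higher in CC. On 1437479_x_at they were 7.96 and 81.9, at least 2.90-fold higher, but the CC signal was under the minimum. The "_x" in this name marks a probe set that may also bind other sequences. The other 3 probe sets, 1439567_at, 1444594_at and 1445757_at, were under background on both arrays, with signals from 1.25 to 3.93. Thus 2 of 5 probe sets showed *Tbx3* in CC and none showed it above background in SFZ cells. At a minimum signal of 200 *Tbx3* would not pass. *Tbx2*, its close relative, had 1 probe set, at 12.3 in SFZ cells and 15.8 in CC, under background on both, so no direction can be given.

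**Figure D2:**
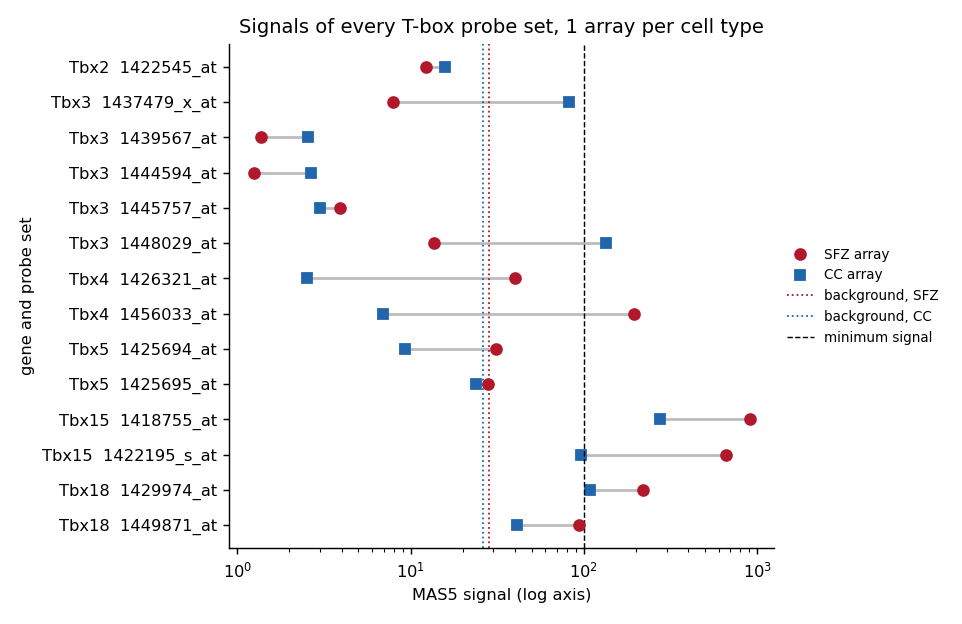
MAS5 signals (log axis) of each of the 14 T-box probe sets, with the SFZ array as circles and the CC array as squares, 1 array each. Background (28.2 and 26.0) is dotted and the minimum signal of 100 is dashed. The 4 probe sets of *Tbx15* and *Tbx18* have both points to the right of the background lines, while *Tbx3* and *Tbx4* have 1 point on either side on 2 probe sets each.

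The sizes of the 9 ratios above background depended on how the signals were handled, as deposited, scaled to equal medians, quantile normalized, raised to background or with 64 added to both. The log2 ratio of *Tbx4* on 1456033_at ran from 1.87 to 5.0 and that of *Tbx3* on 1448029_at from -3.30 to -1.35, since one signal of each is under background. For *Tbx15*, with both signals measured, the ranges were 1.51 to 1.92 and 2.18 to 3.04. The order of *Tbx4* and *Tbx15* by ratio therefore cannot be given.

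**Figure D3:**
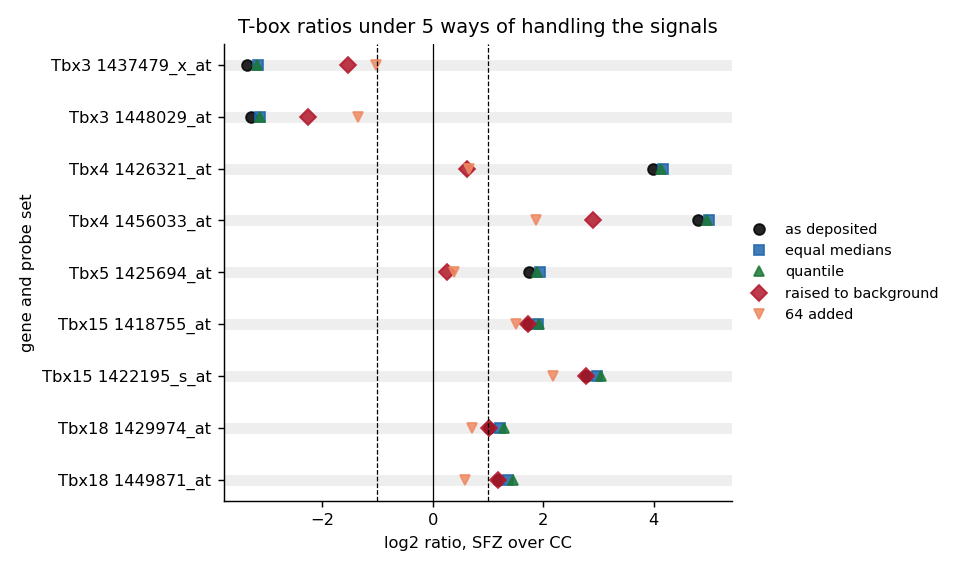
SFZ/CC log2 ratios (horizontal axis) for the 9 T-box probe sets above background on at least 1 array, under 5 ways of handling the signals, each with its own marker. The thresholds of 2 are dashed. The markers of *Tbx15* and *Tbx18* lie closer together than those of *Tbx3*, *Tbx4* and *Tbx5*, which have one signal under background.

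In the genome *Tbx2* lies next to *Tbx4* and *Tbx3* next to *Tbx5*, with no other protein-coding gene between them in the RefSeq annotation. *Tbx4* passed in SFZ cells beside a *Tbx2* under background on both arrays, and *Tbx3* passed in CC beside a *Tbx5* at or near background. Taking 3 protein-coding genes on each side of the 4 places gave 24 neighbours, of which 17 were above background on their brightest probe set. None of the 17 passed in either direction. Of the 12477 named genes above background on this measure, 214 passed in SFZ cells and 985 in CC. At such shares few of 17 genes would pass, so this count does not set the T-box genes apart. *Bcas3*, beside *Tbx2*, was at 40.8 and 83.2, a ratio past the threshold with a CC signal under the minimum. Beside *Tbx4* lay *Brip1*, a DNA repair helicase gene, at 14.1 and 36.9. Beside *Tbx15* lay *Wars2*, a mitochondrial tRNA synthetase gene, at 172 and 213. Beside *Tbx18* lay *Nt5e*, encoding the surface enzyme CD73, at 2593 and 1442, a ratio of 1.80. *Med13l*, a Mediator subunit gene beside *Tbx3*, was at 527 and 882.

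**Figure D4:**
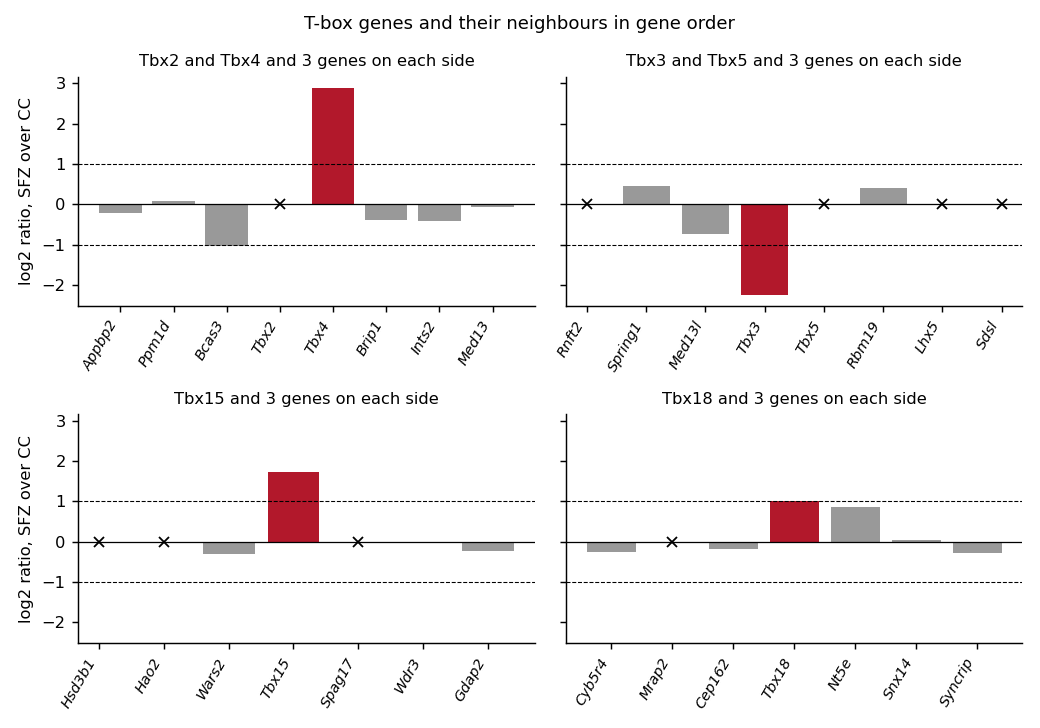
SFZ/CC log2 ratios, with signals raised to background, for the T-box genes (red) and the 3 nearest protein-coding genes on each side (grey) in gene order, on the brightest probe set of each gene. Crosses mark genes under background on both arrays or not named here, and dashed lines mark a ratio of 2. *Tbx4* at 2.90, *Tbx3* at -2.25, *Tbx15* at 1.72 and *Tbx18* at 1.02 are the T-box bars, those of *Tbx4* and *Tbx3* being bounds, and *Tbx5* is a cross because its brightest probe set is under background.

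The rest of the T-box family was mostly under background. Of 9 other T-box genes with 17 probe sets, 7 were under background on both arrays, namely *Tbr1*, *Eomes*, *Tbx1*, *Tbx6*, *Tbx20*, *Tbx21* and *Tbx22*. On the brightest probe set of each gene, 2 of the 9 were above background, against 12477 of all 18193 named genes. The other 3 symbols listed were not analysed here. *Mga*, which encodes a partner of Max that carries a T-box and is widely expressed, had signals of 512 and 389 and a ratio of 1.32. *Tbx19* was at 24.8 and 26.4, at the level of background. No other T-box gene passed in either direction. Of all named genes 1.37% passed in SFZ cells and 6.17% in CC on any probe set, so few of 9 would pass.

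Genes that act beside the limb T-box factors, or that belong to other positions such as the somites, were next. On the brightest probe set of each gene, 1.18% of all named genes passed in SFZ cells and 5.41% in CC, and the median log2 ratio of the 12477 above background was -0.18 with signals raised to background. Of 20 limb bud growth and position genes, 14 were above background, 2 passed in SFZ cells and 6 in CC, with a median of -0.69, in which 5 of the 14 values are bounds. The 2 were *Pitx1* and the limb homeobox gene *Shox2*, at 966 in SFZ cells and 28.8 in CC. Both were listed by the study from these arrays and were among the factors it measured by RT-qPCR. The 6 included *Pax1*, a paired box gene of the sclerotome, at 18.2 and 155, at least 5.50-fold higher in CC, and *Dll1*, a Notch ligand of the somites, at 25 and 114, at least 4.06-fold higher. The others were *Bmp4*, *Meox1*, *Meox2* and *Prrx1*, and *Prrx1* no longer passed after either scaling. Since the list also holds genes of the somites, its counts and median do not describe limb bud genes alone.

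Of 20 cofactors and reported targets of T-box proteins, 19 were named on the array and 14 were above background, of which 1 passed in SFZ cells and 3 in CC, with a median of -0.63, in which 4 of the 14 values are bounds. *Ndrg1*, a stress-responsive gene that *Tbx2* is known to repress in tumour cells, was the one gene higher in SFZ cells, at 2490.2 against 1047. *Tle4*, a Groucho corepressor of the kind that *Tbx15* and *Tbx18* recruit, was at 58.1 and 237, and *Gata6* was at 16.6 and 127, at least 4.51-fold higher in CC. *Tle1* also passed in CC, but not after either scaling. *Tle2* was at 11.7 and 97.2, under the minimum of 100. *Gja1*, encoding connexin 43 and repressed by *Tbx2* and *Tbx3* in other tissues, was named after its values were seen and was at 3851 and 3521.

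The summed signals of all 7 lists of other cell types were higher on the CC array, on the same side as *Tbx3*. Over all named genes the sums were 6882900 in SFZ cells and 7676500 in CC, so the CC array was higher there too. A sum is set mostly by its brightest probe sets. On the brightest probe set of each gene, 1.18% of all named genes passed in SFZ cells and 5.41% in CC. A count of 1 or 2 in lists this short is therefore not read as a result. Of 13 skeletal muscle markers 11 passed in CC and none in SFZ cells, with a summed signal of 299.9 in SFZ cells and 29799 in CC. *Actc1* was at 28.7 and 8228, and *Myf5* and *Pax7* were under background on both. No marker was listed at a signal of 0. Of 6 adipocyte markers measured 5 passed in CC, with sums of 1019 and 11489, such as *Fabp4* at 42.7 and 6039. Of 9 fibroblast and perichondrium markers 5 passed in CC, with sums of 14244 and 24297, and *Postn* was at 138 and 3394. Of 10 pericyte and smooth muscle markers 3 passed in CC, such as *Acta2* at 822 and 5342.5, and 1, *Cspg4*, in SFZ cells. The sums were 3946 and 9625. Of 6 leukocyte markers 2 passed in CC, with sums of 385 and 1839, and 1 did after quantile normalization, where *Csf1r* dropped out. Of 8 mesothelium markers 1, *Msln*, passed in CC, with sums of 237 and 449, and none did after either scaling. *Krt19* alone of these leaned to SFZ cells, at 63.9 and 15.8, at least 2.45-fold higher but under the minimum. None of 6 endothelium markers passed, with sums of 63.5 and 168, and all 6 were under background on the SFZ array. On the CC array 2 of them were under background as well, and *Pecam1* at 26.4 and *Kdr* at 26.6 were barely above it. The part of these cell types in the signal of *Tbx3*, *Pax1* or *Dll1* was not tested. In bulk RNA fewer cells of a type and less RNA per cell cannot be told apart.

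On the side of *Tbx4*, *Tbx15* and *Tbx18*, 2 of 10 chondrocyte markers passed in SFZ cells and none in CC, with sums of 74909 and 57230 and a median log2 ratio of 0.38. These were *Matn1*, encoding matrilin-1, at 9989 and 2692, and *Snorc*, a chondrocyte proteoglycan gene, at 3818 and 1754. After either scaling *Col9a2* passed as well, which made 3. As deposited, 8 of the 10 passed in neither direction. Of these, *Col2a1* at 8251 and 9074, *Col9a1* at 11711 and 11816 and *Sox9* at 902 and 1150 were brighter on the CC array. The others were brighter on the SFZ array. All 10 chondrocyte markers were above background on both arrays. Of the 12477 named genes above background on at least 1 array, 214 passed in SFZ cells and 985 in CC, so small counts in these lists are not read as results. Of 10 superficial zone markers *Prg4* passed in SFZ cells, and *Thbs4* and *Vcam1* passed in CC, with sums of 3229 and 3682. *Erg* also passed in SFZ cells after quantile normalization, which made 2 on each side. The part of the chondrocyte share of the samples in the T-box ratios was not tested.

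**Figure D5:**
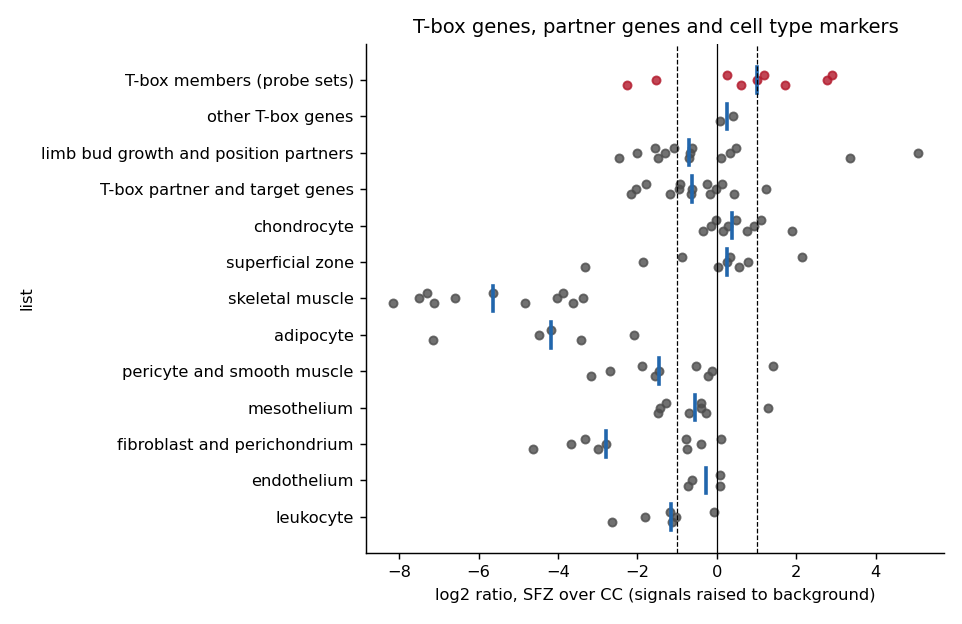
SFZ/CC log2 ratios, with signals raised to background, for the 9 T-box probe sets above background (red) and for the genes of each list above background (grey, brightest probe set of each gene). Blue bars are medians and the thresholds of 2 are dashed. A value with one signal under background is a bound, except for *Tbx19*, *Pecam1* and *Kdr*. Their CC signals lie just above the CC background and exceed their SFZ signals. Only the unequal background levels put these genes at 0.09, on the SFZ side. The T-box probe sets fall on both sides of 0, and the skeletal muscle markers lie farthest toward CC with a median of -5.64.

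By distance in the log2 signals of the 2 arrays, the genes nearest to *Tbx15* were the amino acid transporter gene *Slc38a3*, at 900.4 and 294, and *Cybrd1*, a ferric reductase gene, at 841.5 and 269. Those nearest to *Tbx18* were *N4bp2l1*, at 216 and 101, and *Ndrg2*, at 219.6 and 117. The distance depends on the brightness of each probe set as well as on its ratio, and it rests on 2 values per gene, so it describes the signals and not the level of the RNA. No nearest genes are given for *Tbx3*, *Tbx4* and *Tbx5*, whose brightest probe set had at least 1 signal under background.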

How the data were processed

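Labelled cRNA from 100 ng of total RNA per cell type was hybridized to Affymetrix mouse genome arrays, 1 for SFZ cells and 1 for CC. The deposited values are linear intensities, made by the authors with MAS5 per the submitters' processing notes. Its version was not given in the sources used here, nor was its scaling target. Signals were used without further scaling, and their precision is limited by having 1 array of each kind. Control probe sets, 64 in number, were dropped. Of the other 45037 probe sets 34945 had 1 gene symbol in the platform annotation, 932 had several and 9160 had none listed, and the symbols of all 6 T-box genes matched RefSeq by Entrez identifier. The array names no genome build.

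The background level was set at the 95th percentile of 86 probe sets for smell and taste receptors. Each list gene was represented by its brightest probe set by mean log2 signal. The text names all T-box probe sets, other T-box genes above background, up to 4 genes per list with the largest absolute log2 ratio, *Prg4*, *Gdf5*, *Actb*, and the 2 genes nearest to *Tbx15* and *Tbx18* in both signals (those of the other members were left out, as they rest on signals under background). *Fgf10*, *Gja1*, *Prrx1*, *Bmp4*, *Meox1*, *Meox2*, *Tle1*, *Cspg4*, *Myf5*, *Pax7*, *Erg*, *Col2a1*, *Col9a1*, *Sox9*, the other T-box genes under background and the neighbours were named outside this rule, after their values were seen. The members, lists and motifs were chosen with earlier results of these data known. Counting and scaling were tested on simulated data. Alternatives were 2 scalings, signals raised to background, 64 added to both, other thresholds, other background percentiles, other rules for combining probe sets and leaving out the x, s and a classes of probe sets. Counts of list genes after either scaling were added after seeing the data. The scripts ran under Python 3.11.15 with pandas 2.3.3, numpy 2.4.6 and matplotlib 3.10.9.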

Additional observations from a re-analysis of the deposited data

How the results depend on the processing

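The 3 T-box genes higher in SFZ cells became 1, *Tbx15*, where passing was required of all probe sets of a gene, and the 1 gene higher in CC became 0, by construction, because some probe sets of *Tbx3*, *Tbx4* and *Tbx18* are dim. At a minimum signal of 200 the count in CC was 0 for genes and for probe sets, and at a minimum of 50 it was 2 probe sets, again by construction. In SFZ cells the gene count was 2 with 64 added to both signals or at a ratio over 3 (without *Tbx18*) and where the minimum signal was 200 (without *Tbx4*), and 3 under the other alternatives. The other 48 recomputed counts stayed within 1.5 times the value as deposited. Of 36 recomputed log2 ratios, 12 moved by more than 1.5-fold, all of them with signals raised to background or 64 added. No direction changed, but raising to background and adding 64 cannot turn these ratios, and scaling to equal medians shifts all probe sets alike. No paired analysis was possible because each cell type has 1 array. Leaving out a replicate was not possible for the same reason. Signals under background, as on 1 array for *Tbx3* and *Tbx4*, give bounds only, and no difference of *Tbx2* was detectable above background.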
